A study of Mus musculus with 6 samples.

Results

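The genes described here are 32 macrophage and resident immune genes of the mouse dorsal root ganglion, covering lineage, tissue-resident receptor, complement, phagocytic, lysosomal and antigen-presenting functions. They were found by NCBI gene identifier among the 36528 genes listed for each library, and each of the 32 matched 1 entry. RNA came from lumbar dorsal root ganglia of adult female mice aged 12 to 18 weeks, all carrying loxP sites on both copies of Scn9a, the gene of the sodium channel Nav1.7. The control group (n = 3) lacked the CreER transgene and the CreER-positive group (n = 3), littermates of the controls, carried it under pCAAG, a promoter used for expression in most cell types. Each library held the ganglia L4, L5 and L6 of 1 mouse, 6 ganglia in all, so every library is a separate animal. CreER is a Cre recombinase that tamoxifen activates, and the dosing is not given in the sources used here. Because the promoter is not specific to neurons, recombination is not restricted by the design to neurons and could also involve macrophages. The question addressed is whether transcript levels depend on the presence of CreER in these floxed mice.

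Macrophages live in the ganglion around the cell bodies of sensory neurons and along blood vessels, in close contact with satellite glia. The transcription factor PU.1, encoded by Spi1, sets up the lineage, and the growth factor receptor CSF1R keeps the cells alive. They engulf debris through Fc, scavenger and lipid receptors, tag material with complement C1q, degrade it in lysosomes and present peptides on class II molecules. After nerve injury, macrophages in the ganglion are known to increase in number and to contribute to pain.

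Total counts ranged from 40237131 to 63332040 between libraries. Scn9a itself had 635, 611 and 557 CPM (each library's counts relative to its scaled total) in control replicates 1, 2 and 3 and 620, 565 and 574 CPM in the CreER-positive replicates, a log2 fold change of -0.04 (edgeR adjusted p 0.916). These are counts over the whole gene, not over the part between the loxP sites, so recombination of Scn9a was not tested. Control replicate 2 had a summed level of 65.8 CPM for 8 skeletal muscle markers, against 5.41 to 9.26 CPM in the other libraries, and CreER-positive replicate 3 had the highest level of 27 of the 32 genes described here.

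None of the 32 macrophage and immune genes passed the test between the groups. With edgeR (quasi-likelihood, Benjamini-Hochberg adjusted p under 0.05) 0 of the 32 were called, against 0.726% of all tested genes (160 of 22043), with 0.177% of tested genes higher and 0.549% lower. All 32 passed the filter on low counts. Their adjusted p ranged from 0.643 for Csf1r to 0.998 for Fcer1g, 0 of the 32 had an unadjusted p under 0.05 (10.5% of all tested genes did), and DESeq2 and limma-voom also called 0 (1.93% and 0.721% of all tested genes), as did edgeR with 1 surrogate variable (3.51%). The groups overlapped for each of the 32 genes, whereas they did not overlap for 15.9% of tested genes. In bulk tissue, fewer cells of a type and less RNA per cell cannot be told apart.

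The estimates lay between -0.25 (Ptprc) and 0.44 (Cx3cr1) on the log2 scale. In all, 28 were positive and 4 negative, with a median of 0.16 beside 0.00 over all tested genes, of which 50.9% were positive. Those signs rested on 1 library. Without CreER-positive replicate 3, 25 of the 28 positive estimates turned negative, leaving 3 positive and 29 negative, and the median became -0.12 (-0.01 over all tested genes). In that fit 0 of the 32 were called, against 2.48% of tested genes. The 95% interval from all 6 libraries reached a doubling for 1 gene, Cx3cr1 (upper bound 2.39-fold), stayed under it for the other 31, and reached down to 0.504-fold at the lowest, for Ptprc.

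**Figure D1:**
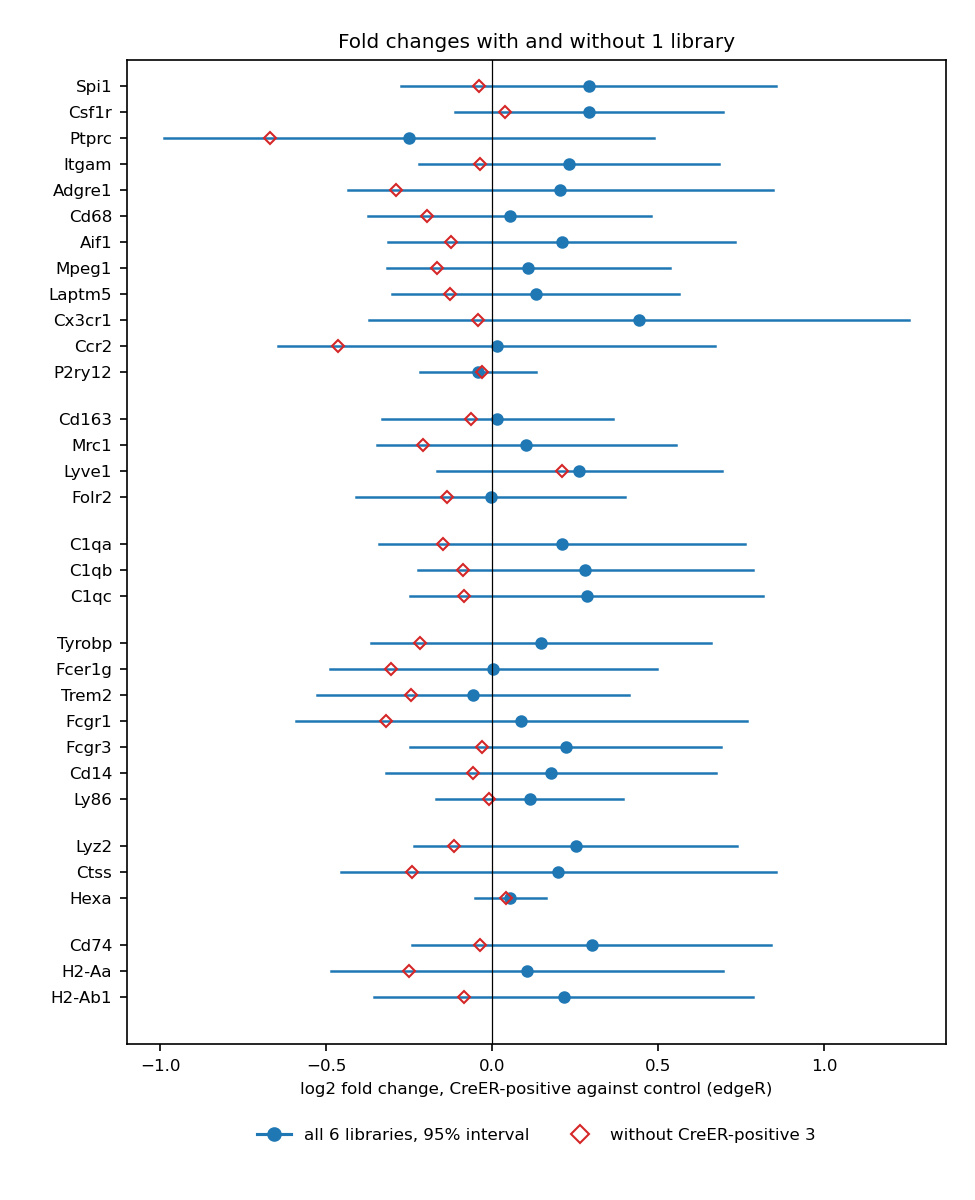
Log2 fold change of each of the 32 genes, CreER-positive against control, from edgeR. Filled circles and lines give the estimate and 95% interval with all 6 libraries, and open diamonds the estimate without CreER-positive replicate 3. With all libraries 28 circles lie above 0, and without that replicate 29 diamonds lie below it.

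Among lineage and identity genes, the receptor gene Csf1r (gene identifier 12978), on chromosome 18 from 61105572 to 61131139 (GRCm38), measured 16.7, 15.3 and 12.5 CPM in control replicates 1, 2 and 3. In CreER-positive replicates 1, 2 and 3 it had 15.1, 15.2 and 24.0 CPM. Replicates 1 and 2 of the CreER-positive group thus lay within the control range and replicate 3 above it. This gave means of 14.8 ± 2.12 and 18.1 ± 5.12 CPM (SD, n = 3), a log2 fold change of 0.29 ± 0.18 (SE).

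Spi1, the PU.1 gene, had the same highest and lowest library, with 1.65, 1.57 and 1.23 CPM among controls and 1.53, 1.33 and 2.57 CPM among CreER-positive mice (0.29 ± 0.25). Itgam, the integrin CD11b of myeloid cells, had 3.20, 3.00 and 2.56 against 2.80, 2.86 and 4.60 CPM (0.23). Aif1, the actin-binding protein IBA1 used to stain macrophages, had 2.90, 2.91 and 2.33 against 2.42, 2.54 and 4.45 CPM (0.21). In these 3 genes too, control replicate 3 was the lowest library and CreER-positive replicate 3 the highest. Mpeg1, which encodes the pore-forming perforin-2, ran from 9.55 to 16.2 CPM (0.11), and Laptm5, a lysosomal membrane protein gene of blood cells, from 5.58 to 9.83 CPM (0.13).

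Adgre1, the F4/80 antigen of mouse macrophages, and the chemokine receptor genes Cx3cr1 and Ccr2 had the same highest library and wider spreads. Adgre1 had 6.54, 6.95 and 5.99 CPM among controls and 5.75, 4.87 and 11.9 CPM among CreER-positive mice. Cx3cr1, the fractalkine receptor of resident cells, had 4.01, 2.83 and 1.80 against 2.43, 3.06 and 6.13 CPM, a span of 3.40-fold between its lowest and highest library. Ccr2, the receptor that guides monocytes into tissue, had 8.51, 8.90 and 6.15 against 5.27, 6.05 and 12.5 CPM. Without CreER-positive replicate 3 the estimates of Adgre1 (-0.29, unadjusted p 0.0298) and Ccr2 (-0.47, 0.0161) were negative in edgeR's fit, at adjusted p of 0.207 and 0.155. Ptprc was the other gene of the 32 with an unadjusted p under 0.05 there, in a fit where 18.8% of all tested genes were under that value.

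Cd68, a late endosomal glycoprotein, had the flattest controls of the lineage genes in CPM, at 2.63, 2.73 and 2.82, against 2.22, 2.54 and 3.76 CPM among CreER-positive mice (0.05). Ptprc, the CD45 phosphatase carried by nearly all white blood cells, followed another order, with 6.79, 9.93 and 4.52 CPM among controls and 4.87, 4.02 and 9.002 CPM among CreER-positive mice. Its highest library was control replicate 2. That library was also the highest for 7 of 7 markers of B and plasma cells found in the files and for 8 of 11 of T and NK cells. Their part in the Ptprc value was not tested. P2ry12, a purine receptor gene typical of microglia, was nearly constant at 17.3, 20.1 and 17.3 against 17.1, 18.6 and 17.4 CPM. It lies inside Med12l on the opposite strand, and no strand setting is given in the sources used here, so reads of the gene and its host cannot be told apart. Med12l was about as flat, at 76.4 to 81.5 CPM over the 6 libraries.

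**Figure D2:**
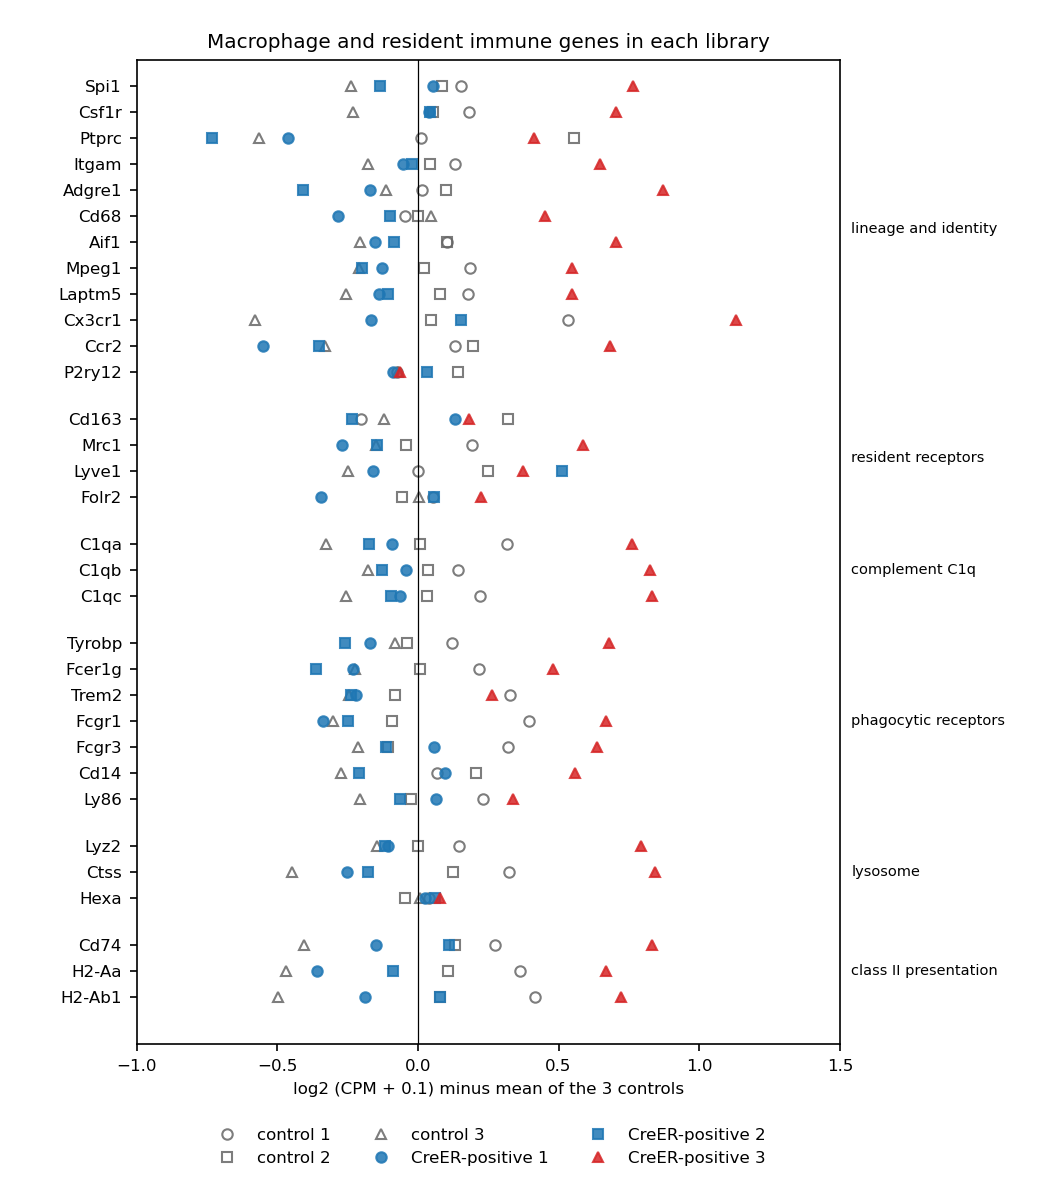
Level of each gene in each library on the log2 (CPM + 0.1) scale, minus the mean of the 3 controls, grouped by role. Open grey symbols are controls, blue symbols CreER-positive replicates 1 and 2, and red triangles CreER-positive replicate 3, which is the highest library for 27 of the 32 genes.

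The tissue-resident receptor genes were less uniform. Mrc1, the mannose receptor CD206, had 19.8, 16.8 and 15.6 CPM among controls and 14.4, 15.7 and 26.1 CPM among CreER-positive mice, highest in CreER-positive replicate 3 and lowest in CreER-positive replicate 1. Cd163, the receptor that clears haemoglobin bound to haptoglobin, had 7.90, 11.4 and 8.37 against 9.97, 7.71 and 10.3 CPM, and its highest library was control replicate 2. Lyve1, a hyaluronan receptor gene shared by some macrophages and lymphatic endothelium, had 3.99, 4.75 and 3.34 against 3.55, 5.73 and 5.19 CPM. It was the single gene of the 32 whose highest library was CreER-positive replicate 2. Folr2, the folate receptor beta gene, stayed between 1.13 and 1.73 CPM, with group means of 1.47 ± 0.0585 and 1.46 ± 0.303 CPM (SD, n = 3), and it overlaps the antisense gene Gm10602. CreER-positive replicate 3 was 1.12 to 1.30 times the mean of the other CreER-positive replicates for Cd163, Lyve1 and Folr2 and 1.74 times for Mrc1.

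C1qa, C1qb and C1qc, neighbours on chromosome 4 (136880126 to 136898844 in GRCm38), encode the 3 chains of complement C1q, which starts the classical pathway. C1qa had 15.6, 12.5 and 9.92 CPM among controls and 11.7, 11.03 and 21.2 CPM among CreER-positive mice. C1qb had 15.6, 14.5 and 12.5 against 13.7, 12.9 and 25.1 CPM. C1qc had 12.7, 11.2 and 9.13 against 10.4, 10.2 and 19.5 CPM. All 3 chains had the same highest and lowest library, and CreER-positive replicate 3 stood at 1.86 to 1.89 times the mean of the other CreER-positive replicates. Their log2 fold changes were 0.21, 0.28 and 0.28 with all libraries and -0.15, -0.09 and -0.08 without that replicate.

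Of the 7 phagocytic and signalling genes, Tyrobp and Fcer1g encode the adaptors DAP12 and the Fc receptor gamma chain, which pass on signals from many myeloid receptors. Tyrobp had 6.03, 5.38 and 5.22 CPM among controls and 4.90, 4.61 and 8.93 CPM among CreER-positive mice (0.15 ± 0.23). Fcer1g had 5.29, 4.57 and 3.88 against 3.85, 3.52 and 6.37 CPM, and its group means of 4.58 ± 0.707 and 4.58 ± 1.56 CPM (SD, n = 3) were equal to 3 digits. CreER-positive replicates 1 and 2 lay below the lowest control for both genes, and replicate 3 above the highest. Trem2, a lipid-sensing receptor that signals through DAP12, had 2.26, 1.68 and 1.49 against 1.517, 1.497 and 2.16 CPM, and it was the single gene whose highest library was control replicate 1.

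The Fc receptor genes Fcgr1 and Fcgr3 bind antibody-coated particles. Fcgr1 ran from 1.23 to 2.57 CPM (0.09) and Fcgr3 from 4.32 to 7.86 CPM (0.22). Cd14, a co-receptor for bacterial lipopolysaccharide, ran from 1.55 to 2.84 CPM (0.18). In these 3 genes CreER-positive replicate 3 was again the highest library. Ly86, whose protein MD-1 pairs with the receptor RP105 on immune cells, had 182, 153 and 135 CPM among controls and 163, 149 and 197 CPM among CreER-positive mice (0.11 ± 0.13), so the same 2 libraries were at the ends over a narrower span of 1.46-fold.

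Within the lysosomal genes, Lyz2 and Ctss shared their highest and lowest library with Csf1r, and Hexa was nearly constant. Lyz2, the lysozyme of myeloid cells, had 47.0, 42.6 and 38.5 CPM among controls and 39.5, 39.2 and 73.8 CPM among CreER-positive mice (0.25 ± 0.22). Its near-identical neighbour Lyz1 could share reads with it. Ctss, cathepsin S, which trims the class II chaperone, had 14.2, 12.4 and 8.29 against 9.50, 10.0 and 20.4 CPM (0.20 ± 0.29). Hexa, the alpha subunit of the lysosomal enzyme hexosaminidase, which most cell types use, had 56.6, 53.4 and 55.3 against 56.0, 57.4 and 58.1 CPM. Its span over the 6 libraries was 1.09-fold, the narrowest of the 32 genes. Its log2 fold change of 0.05 ± 0.05 had 95% bounds of -0.05 and 0.16.

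The class II genes varied widely within each group. H2-Aa and H2-Ab1 encode the alpha and beta chains of the class II molecule I-A, and Cd74 encodes the invariant chain that guards its groove. H2-Aa had 73.8, 61.7 and 41.4 CPM among controls and 44.7, 53.9 and 91.3 CPM among CreER-positive mice. H2-Ab1 had 33.6, 26.6 and 17.8 against 22.0, 26.6 and 41.5 CPM. Cd74 had 79.0, 71.7 and 49.3 against 59.0, 70.5 and 116 CPM, with group means of 66.7 ± 15.4 and 81.9 ± 30.3 CPM (SD, n = 3) and a log2 fold change of 0.30 ± 0.24 (SE). Control replicate 1 had 1.60 to 1.89 times the level of control replicate 3 in the 3 genes, so the spread among the controls alone exceeded the differences between the groups.

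Across the 32 genes the spread between mice of 1 group was larger than the difference between the groups for 31, the exception being Hexa. How many of all tested genes meet this was not counted, so it is not shown to be a trait of these genes. The within-group standard deviation on the log2 (CPM + 0.1) scale had a median of 0.36, beside 0.10 for the 15388 tested genes with a mean level in the same range (1.47 to 163 CPM). Control replicate 3 was the lowest library for 20 of the 32 genes and CreER-positive replicate 3 for 0, while these libraries were the lowest for 12.3% and 22.9% of all tested genes. CreER-positive replicate 3 was the highest library for 24.3% of all tested genes. It exceeded the mean of the other CreER-positive replicates by more than 1.5-fold for 25 genes, with a median ratio of 1.73. That ratio was not computed over all tested genes. Set against the mean of the controls, the median gene of the 32 stood at 0.17, 0.04 and -0.23 (log2) in control replicates 1, 2 and 3 and -0.15, -0.11 and 0.66 in CreER-positive replicates 1, 2 and 3.

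Most of this variation was common to the genes. When each library's median over the 32 genes was taken off, the median within-group standard deviation went from 0.36 to 0.16, and it became smaller for 27 genes. It went from 0.31 to 0.05 for Csf1r, from 0.36 to 0.05 for Aif1 and from 0.41 to 0.06 for C1qc. It became larger for 5, namely P2ry12 (0.10 to 0.37), Hexa (0.04 to 0.34), Cd163 (0.26 to 0.36), Lyve1 (0.31 to 0.36) and Folr2 (0.21 to 0.26). Ptprc (0.34) and Cx3cr1 (0.31) kept the largest remaining spread among the 27. The median was taken over the same genes, so this describes how they vary together and tests nothing.

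Levels of other cell types differed between the same libraries. Endothelial markers had their highest level in CreER-positive replicate 3 for 9 of 9 genes, with sums of 141 to 166 CPM in the other 5 libraries and 215 CPM there (Flt1, a receptor for VEGF, 39.0 CPM against 23.4 to 30.8). Fibroblast and meningeal markers were highest there for 6 of 9 genes, with sums of 904 to 1251 CPM elsewhere and 1609 CPM there (Dcn, the matrix proteoglycan decorin, 944 CPM against 545 to 772). Dcn makes up most of that sum, and averaged over the 9 genes on the log2 scale the list stood at 0.44 above the control mean both there and in control replicate 1. Red blood cell genes were highest there for 5 of 7 genes, with sums of 33.7 to 45.7 CPM elsewhere and 84.1 CPM there (Hbb-bs, a beta globin, 48.4 CPM against 18.2 to 25.4). Satellite glia markers were highest there for 5 of 9 genes (2454 to 2751 CPM elsewhere and 3231 CPM there). A large part of that sum was Apoe (1184 to 1465 CPM elsewhere and 1636 CPM there), which is also listed below as a macrophage activation gene. Of 14 pan-neuronal markers 0 were highest and 8 were lowest there, with a sum of 12490 CPM against 13160 to 15810 CPM elsewhere (Nefl, a neurofilament subunit, 2183 CPM against 2397 to 3223). That list also holds Scn9a, the floxed gene, and Scn10a, a sodium channel gene called between the groups by DESeq2 (1.93% of all tested genes). Despite its name it is thus not a list of genes common to all neurons, nor independent of the groups compared. The part of these cell types in the values of the macrophage genes was not tested.

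Among the controls, the fibroblast and meningeal markers ran parallel to the macrophage genes. All 9 of them were higher in control replicate 1 than in replicate 3 (sums of 1251 and 904 CPM), as were 29 of the 32 macrophage and immune genes. The share of all tested genes with that order was not computed. For endothelial markers 1 of 9 was higher in replicate 1 (142 and 166 CPM). Mast cell (7 of 8), dendritic cell (7 of 8) and T and NK cell markers (9 of 11) were also mostly higher in replicate 1. Schwann cell (1 of 9), lymphatic endothelial (1 of 5) and satellite glia markers (2 of 9) mostly were not. The other marker lists lay between, so the order was not particular to fibroblast markers.

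Markers of other immune cells were measured too. Those of neutrophils summed to 29.1 to 39.9 CPM (S100a9, a calcium-binding protein gene, 8.69 to 12.96), with 2 of 11 highest in CreER-positive replicate 3. T and NK cell markers summed to 3.99 to 5.60 CPM (Lck, a T cell kinase gene, 1.25 to 2.09) and mast cell markers to 6.22 to 11.6 CPM (Cpa3, carboxypeptidase A3, 1.97 to 3.79). B and plasma cell markers summed to 20.8 CPM in control replicate 2 and 5.14 to 10.0 CPM elsewhere, and Jchain, the joining chain of secreted antibodies, made up most of this, at 12.7 CPM against 2.06 to 4.14. Ckm, the muscle creatine kinase, had 10.98 CPM in control replicate 2 and 2.58 to 3.78 elsewhere. Monocyte markers summed to 66.2 to 82.1 CPM, led by Nr4a1 (26.2 to 35.3), and dendritic cell markers to 129 to 142 CPM, led by Zbtb46 (88.5 to 99.6). The dendritic list was highest in CreER-positive replicate 3 on the log2 scale (0.29 above the control mean, with 3 of 8 genes highest there). Both leading genes are transcription factors that other cells also use. Lymphatic endothelial (16.6 to 25.2 CPM), pericyte (169 to 215 CPM), adipocyte (5.39 to 12.7 CPM) and Schwann cell (3429 to 4224 CPM) sums had Pdpn, Rgs5, Plin4 and Pmp22 as their leading genes, and the lymphatic chemokine gene Ccl21a was at 0 in all 6 libraries. Of 127 tested marker genes of other cell types 2 were called (0.726% of all tested genes), both lower (0.549%), namely Pax5, a B cell factor, and Rgs5 (147 ± 10.6 to 111 ± 5.83 CPM, SD, n = 3, edgeR adjusted p 0.0341).

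**Figure D3:**
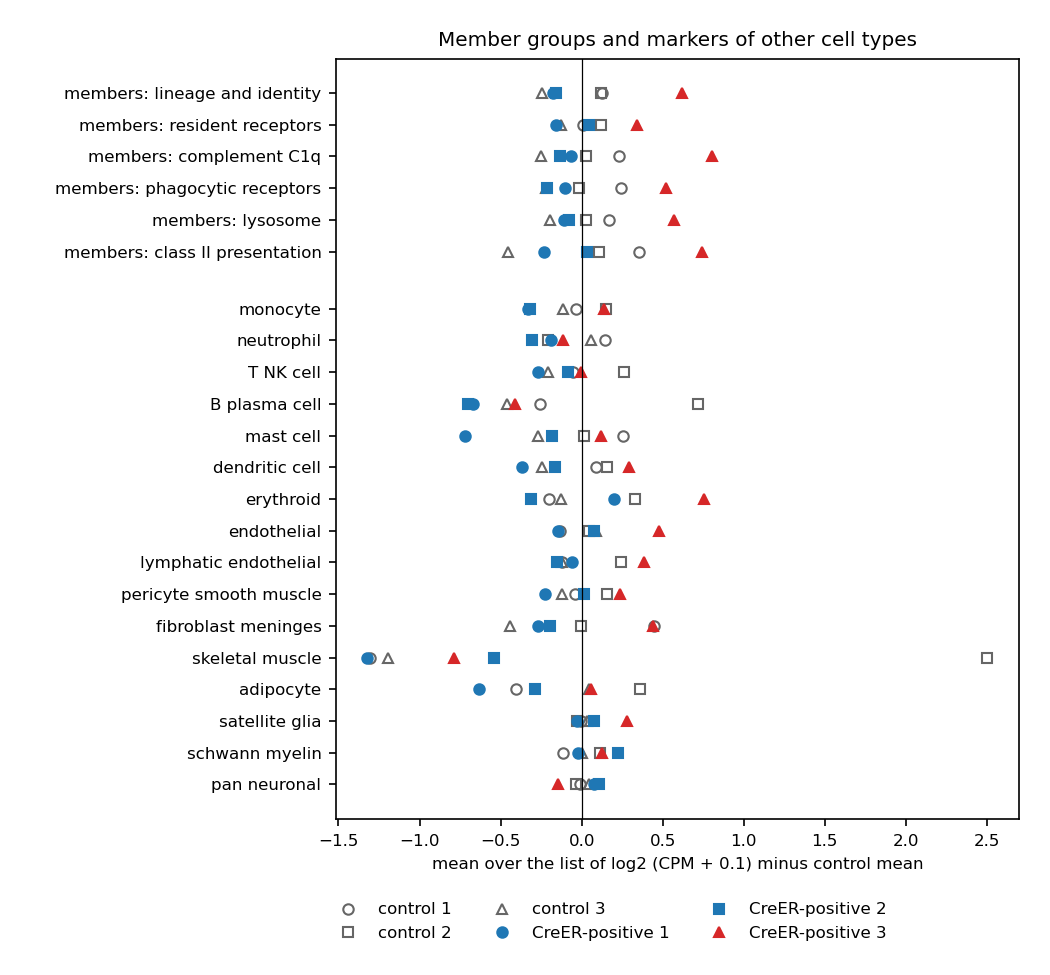
Mean level of each role group of the 32 genes and of each list of markers of other cell types in each library, on the log2 (CPM + 0.1) scale against the control mean. CreER-positive replicate 3 (red triangles) is the highest library for all 6 role groups. It is also the highest for erythroid, endothelial, lymphatic endothelial, dendritic cell, satellite glia and pericyte markers, level with control replicate 1 for fibroblast markers, and the lowest for pan-neuronal markers. By summed CPM the pericyte list was lower there (179.3) than in the controls (193.3 to 214.5). The dendritic cell sum (137.1 CPM) was below control replicates 1 and 2 (139.0 and 142.1 CPM).

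Per kilobase of exon, Ly86 (44.9 CPM per kb, mean of the 6 libraries), Cd74 (44.2), Lyz2 (35.5) and Hexa (28.1) had the highest levels of the 32. The ranges of Ly86, Cd74 and Lyz2 over libraries overlapped. Such ranges ignore that the genes were measured in the same libraries, and their order was not tested. H2-Aa (16.1), C1qb (14.4), C1qa (13.1), H2-Ab1 (10.9), Ctss (9.19) and Tyrobp (8.76) came next, and neighbours among these overlapped as well. Csf1r (2.85), Mrc1 (2.83), Mpeg1 (2.67) and Adgre1 (2.16) lay in the middle. The lowest were Spi1 (0.612), Trem2 (0.357) and Ptprc (0.356). Exon length is the merged length over annotated transcripts, and it was 18.31 kb for Ptprc and 4.946 kb for Trem2. Where it exceeds the length of the transcripts present, the level is understated. The deposited gene widths cover the whole span for most genes, so counts may include introns. Genes with long introns may thus be overstated on this scale.

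Ly86 held 7416 to 10466 counts per library over a span of 73692 bases on chromosome 13 (37345345 to 37419036), and no other annotated gene overlaps it. Cd74, at a like level per kilobase of exon, held 3119 to 6190 counts over a much shorter gene, and intron reads may add to the Ly86 level. Its ratio of CreER-positive replicate 3 to the mean of the other CreER-positive replicates was 1.26, below the median of 1.73. Annotated genes overlap 10 of the 32, but only for P2ry12, Itgam (Gm49368) and Hexa (Tmem202) is the partner a protein-coding gene.

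**Figure D4:**
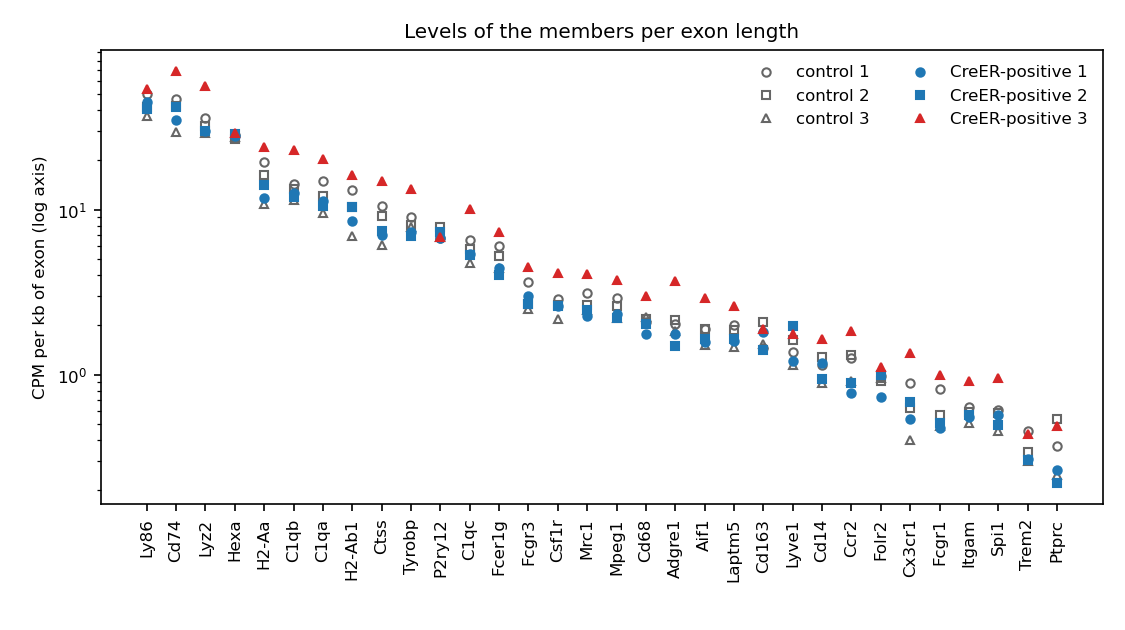
Level of each of the 32 genes in each library, in CPM per kilobase of merged exon on a log axis, ordered by the mean of the 6 libraries. Levels run from 44.9 for Ly86 to 0.356 for Ptprc, and the symbols of a gene are closest together for Hexa.

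Of 111 other genes of the same pathways, listed by role, 104 were tested and 1 was called, beside 0.726% of all tested genes. This was Runx1, a transcription factor gene of blood cells and of sensory neurons, which fell from 129 ± 6.03 to 96.1 ± 8.87 CPM (SD, n = 3, -0.43 ± 0.07 SE, edgeR adjusted p 0.0387). It had 136, 125 and 126 CPM among controls and 106, 94.5 and 88.1 CPM among CreER-positive mice, with no overlap. The call was lost without control replicate 1, 2 or 3 (edgeR adjusted p 0.206, 0.150 and 0.148) or CreER-positive replicate 2 (0.115), within a range of 3.4e-05 (DESeq2) to 0.206 over its alternatives. CreER-positive replicate 3 was its lowest library, whereas it was the lowest for 0 of the 32 genes above. Of the 11 tested myeloid regulators 3 had an unadjusted p under 0.05 (10.5% of all tested genes), and Irf5, which activates inflammatory genes, was called by DESeq2 besides Runx1 (1.93% of all tested genes).

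Lysosomal genes outside the 32 were mostly above 0 in both fits. Of 16 tested, 15 had a positive estimate with all libraries and 13 without CreER-positive replicate 3, and the median was 0.14 and 0.15. Over all tested genes 50.9% were positive with all libraries and 52.8% negative without that replicate. With all libraries edgeR called 0 of the 16 (0.726% of all tested genes), and 7 had an unadjusted p under 0.05 (10.5%). DESeq2 called 2, Ctsl and Lgmn (1.93%), and edgeR with 1 surrogate variable called 4, Ctsl, Ctsz, Lgmn and Psap, the precursor of the saposins (3.51%). Without CreER-positive replicate 3 edgeR called 1, Psap (2.48%). Ctsz, cathepsin Z, had 46.1, 44.4 and 47.4 CPM among controls and 50.04, 56.0 and 55.7 CPM among CreER-positive mice (0.23 ± 0.06, edgeR adjusted p 0.167 and 0.0474 with 1 surrogate variable). Lgmn, the lysosomal protease legumain, had 203, 196 and 217 against 238, 247 and 239 CPM (0.23 ± 0.06, edgeR adjusted p 0.192 and 0.0318 with 1 surrogate variable, DESeq2 adjusted p 0.0180). The groups did not overlap for either gene, as for 15.9% of all tested genes.

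Genes that support or instruct macrophages were not called, 0 of 10 for growth factors and chemokines (0.726% of all tested genes). Of these, 1 had an unadjusted p under 0.05 (10.5% of all tested genes). Lists this short can hold 0 calls at that share, so the absence of calls sets no list apart. Il34, a ligand of CSF1R, had 23.2, 22.4 and 21.9 CPM among controls and 24.9, 27.8 and 23.9 CPM among CreER-positive mice (0.19, edgeR adjusted p 0.366), and Tgfbr2, a TGF-beta receptor gene, had 0.19 (0.615). Of 29 tested phagocytic surface genes 0 were called (0.726%) and 1, Mertk, had an unadjusted p under 0.05 (10.5%). Mertk, which recognises dying cells, had 40.9, 51.2 and 48.5 against 38.7, 37.1 and 39.7 CPM (-0.29, adjusted p 0.217), and Gpr34 had 0.30 (0.597). In that list 25 of 32 genes were highest in CreER-positive replicate 3, as were 24.3% of all tested genes. By DESeq2, 0 growth factor and 0 phagocytic surface genes were called (1.93% of all tested genes).

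Of 10 further complement genes 0 were called by edgeR (0.726% of all tested genes) or DESeq2 (1.93%). An unadjusted p under 0.05 was found for 0 of them (10.5% of all tested genes). The same shares stand beside the lists that follow. The complement genes included C4b with 0.16 (0.724) and the integrin gene Itgb2 with 0.30 (0.736). For antigen presentation 0 of 12 were called by either tool and 1, Tapbp, had an unadjusted p under 0.05. Tapbp, the class I loading factor tapasin, had 0.16 (0.328) and Cd80, a T cell co-stimulator, 0.15 (0.595). Of 17 activation genes 0 were called by either tool and 3 had an unadjusted p under 0.05. Retnla, a marker of alternatively activated macrophages, had 0.763, 1.12 and 1.39 CPM among controls and 1.05, 3.03 and 2.82 CPM among CreER-positive mice (1.04 ± 0.37, adjusted p 0.343). Apoe, a lipid carrier also made by satellite glia, had 0.23 (0.448).

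Upstream sequences are shown for 5 of the 32 genes, 4 that followed the common pattern over libraries and Hexa, which did not. They come from RefSeq (GRCm38.p6), which matched 23 of the 32 genes with 26 promoters, and stop before the first annotated transcribed base. Capitals mark matches on either strand to AGGAAGT or GAGGAA, letters of the PU.1 and wider ETS site (found in C1qc, Ctss and Lyz2), and to ATTGG, the reversed CCAAT box of many promoters (found in H2-Aa and Hexa).
C1qc, chr4:136893066-136893164, minus strand: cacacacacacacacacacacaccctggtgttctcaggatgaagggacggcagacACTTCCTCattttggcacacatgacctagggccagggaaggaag
Ctss, chr3:95526536-95526785, plus strand: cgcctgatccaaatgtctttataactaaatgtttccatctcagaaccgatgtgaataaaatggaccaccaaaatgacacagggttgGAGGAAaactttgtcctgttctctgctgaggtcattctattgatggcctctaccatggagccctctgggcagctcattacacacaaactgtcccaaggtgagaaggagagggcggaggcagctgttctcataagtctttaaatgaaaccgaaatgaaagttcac
Lyz2, chr10:117282322-117282522, minus strand: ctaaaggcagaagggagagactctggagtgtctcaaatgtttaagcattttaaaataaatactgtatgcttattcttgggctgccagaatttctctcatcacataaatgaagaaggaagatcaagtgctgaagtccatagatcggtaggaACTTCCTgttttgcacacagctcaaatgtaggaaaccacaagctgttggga
H2-Aa, chr17:34287824-34288073, minus strand: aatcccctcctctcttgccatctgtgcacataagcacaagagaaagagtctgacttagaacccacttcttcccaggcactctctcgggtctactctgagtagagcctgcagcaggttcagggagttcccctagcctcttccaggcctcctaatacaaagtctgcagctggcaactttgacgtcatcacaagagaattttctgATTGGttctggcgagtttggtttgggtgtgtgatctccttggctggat
Hexa, chr9:59539290-59539539, plus strand: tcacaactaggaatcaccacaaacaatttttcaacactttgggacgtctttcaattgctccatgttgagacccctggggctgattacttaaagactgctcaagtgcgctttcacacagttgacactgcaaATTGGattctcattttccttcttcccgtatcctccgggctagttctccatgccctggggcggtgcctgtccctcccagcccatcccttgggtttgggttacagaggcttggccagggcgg

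In the 250 bases before the start, GAGGAA on either strand was found for 12 of the 23 genes and in 23.3% of 32851 promoters of the genome. Here and below, a gene counts if any of its promoters matches (26 promoters for the 23 genes). The genome share is per promoter, so the 2 figures are in unlike units. AGGAAGT, which shares AGGAA with it, was found for 8 (C1qb, C1qc, Fcgr1, Folr2, Lyz2, Mrc1, P2ry12 and Ptprc) and in 7.69% of promoters. The longer GAGGAAGT, which contains both, was found for C1qc alone and in 2.44% of promoters. ATTGG was found for 9 genes and in 33.8% of promoters, TAGCAAC for 2 and in 3.16%, and TATAAA for 3 and in 12.4%. Hexa and Cd163 hold neither AGGAAGT nor GAGGAA, and P2ry12 and Folr2, which also departed from the common pattern, hold AGGAAGT. Cx3cr1, H2-Aa and Mpeg1, with the same highest and lowest library as Csf1r, hold neither as well. A match is a run of letters and no measured site.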

How the data were processed

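Alignment was to GRCm38 (mm10) with GSNAP, per the submitters' processing notes. No counting tool, annotation or strand setting is named in those sources. Each deposited table holds, per the file headers, raw counts, widths and RPKM. RPKM as deposited is the count over width and library total and entered no test. For 77.7% of genes with a symbol the width lies within 5% of the full gene span, so counts appear to include introns.

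Identifiers were matched to symbols in GRCm38.p6 (31049 of 36528, the rest holding 1.91% of counts). Counts were filtered with filterByExpr, scaled with TMM factors and tested with edgeR 4.0.16 (R 4.3.3), glmQLFit and glmQLFTest, with Benjamini-Hochberg adjustment at 0.05. Standard errors are the log2 fold change divided by the square root of F. Log2 levels used a pseudocount of 0.1 CPM. Alternatives were DESeq2 1.42.0, limma-voom (limma 3.58.1), DESeq2 and upper-quartile size factors, total counts, other count filters, 1 surrogate variable (sva 3.50.0) and leaving out libraries. The fits were also run on simulated data. The outcome is not given here, so no conclusion about the fits of the macrophage and immune genes is drawn from that run. Replicate numbers follow the order of deposit. Nothing in the labels pairs animals or gives a batch. Precision is set by 3 animals a group.

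The 32 genes and all lists were chosen with earlier results of these data known. Besides the 32, called genes of each wider list were named, otherwise the 2 with the smallest unadjusted p, and of each marker list the gene with the highest mean CPM. Irf5, Ctsl, Psap, Pax5, Ccl21a and Med12l were named after their values were seen. The printed promoters and the letters searched were also chosen then. The markers Trac, Ighm and Igkc were not analysed here. Figures were drawn with matplotlib 3.10.9.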

Additional observations from a re-analysis of the deposited data

How the results depend on the processing

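None of the 32 genes was called in any of the 15 alternatives run, the lowest adjusted p being 0.0576 for Csf1r with 1 surrogate variable. Their median log2 fold change of 0.16 lay between 0.09 and 0.17 under other scalings, filters and tests. It ranged from -0.12 to 0.30 when 1 library was left out, the lowest without CreER-positive replicate 3, and was -0.09 without that library and control replicate 2. Over all genes, 160 calls became 425 with DESeq2, 254 with no count filter, 774 with 1 surrogate variable and 61 to 547 when 1 library was left out. Calls in the wider immune lists went from 1 to 4 with DESeq2, 2 with no count filter, 6 with 1 surrogate variable, 0 without control replicate 2 and CreER-positive replicate 3, and 0 to 3 with 1 library left out. Signs of single genes changed mainly with the libraries used, and the cause was not tested beyond that.

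When 1 library was left out, estimates that changed sign in at least 1 such fit ranged as follows: Spi1 -0.039 to 0.47, Ptprc -0.67 to 0.083, Itgam -0.036 to 0.36, Adgre1 -0.29 to 0.44, Cd68 -0.20 to 0.21, Aif1 -0.12 to 0.37, Mpeg1 -0.17 to 0.25, Laptm5 -0.13 to 0.26, Cx3cr1 -0.042 to 0.74, Ccr2 -0.47 to 0.24, P2ry12 -0.079 to 0.033, Cd163 -0.079 to 0.20, Mrc1 -0.21 to 0.27, Folr2 -0.14 to 0.16, C1qa -0.15 to 0.38, C1qb -0.087 to 0.45, C1qc -0.085 to 0.45, Tyrobp -0.22 to 0.32, Fcer1g -0.30 to 0.17, Trem2 -0.25 to 0.12, Fcgr1 -0.32 to 0.31, Fcgr3 -0.032 to 0.39, Cd14 -0.059 to 0.35, Ly86 -0.0082 to 0.24, Lyz2 -0.11 to 0.41, Ctss -0.24 to 0.40, Cd74 -0.037 to 0.49, H2-Aa -0.25 to 0.31, H2-Ab1 -0.085 to 0.44. Without control replicate 2 and CreER-positive replicate 3 together, the estimates of opposite sign were Itgam -0.011, Adgre1 -0.24, Cd68 -0.20, Aif1 -0.064, Mpeg1 -0.16, Laptm5 -0.088, Cx3cr1 -0.036, Ccr2 -0.36, P2ry12 0.046, Mrc1 -0.23, C1qa -0.15, C1qb -0.070, C1qc -0.070, Tyrobp -0.24, Fcer1g -0.30, Fcgr1 -0.37, Fcgr3 -0.088, Ly86 -0.025, Lyz2 -0.12, Ctss -0.19, H2-Aa -0.22, H2-Ab1 -0.064. Other settings changed the sign of estimates near 0: Fcer1g (-0.0071 with upper-quartile factors, -0.014 with total counts, -0.034 with limma-voom and -0.063 with 1 surrogate variable), Cd163 (-0.0051 with total counts), Folr2 (0.0051 with no count filter), Ccr2 (-0.078 with limma-voom and -0.11 with 1 surrogate variable), and Cd68 (-0.0013) and Fcgr1 (-0.011) with 1 surrogate variable. No paired analysis was possible because the labels give no replicate numbers or other link between animals of the groups. With 3 animals a group, the 95% intervals above give the precision of each gene taken alone. They are not adjusted for the number of genes tested, so a difference beyond them could also go uncalled.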
